A study of Mus musculus with 9 samples.

Results

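The comparison described here sets mcDC libraries against cDC2 libraries, both from the spleen of C57Bl/6 mice aged 8 to 12 weeks. It holds 6 of the 9 RNA-seq libraries of the study: the 3 mcDC and the 3 cDC2 libraries, chosen by their labels. The other 3 libraries, from cDC1, were left out of the fit and are quoted only as levels beside the others. No treatment, transgene or other genotype is named for any group, and how the cells were sorted is not given in the sources used here. The titles number the libraries in runs of 3, one of each cell type, and mcDC library 1 was paired with cDC2 library 1, and so on. Whether libraries of 1 group come from separate animals or from pools is not in the labels. The p-values therefore measure only how far these libraries scatter, and that scatter may be technical.

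Conventional dendritic cells present antigen to T cells and fall into 2 main classes. The cDC1 class depends on the transcription factors IRF8 and BATF3 and takes up dead cells through receptors such as CLEC9A. The cDC2 class carries SIRPA and CD11b and presents antigen mainly to CD4 T cells. The abbreviation mcDC is used in mouse work for merocytic dendritic cells, a splenic population described for its uptake of apoptotic cells; the labels themselves do not spell it out. Clearance of apoptotic cells is otherwise best known in the spleen from macrophages, which bind dying cells through MERTK and AXL, opsonise them with C1q and recycle their iron through ferroportin.

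Each library listed the same 14862 genes in RPKM, which is reads per kilobase of gene length, scaled to the reads of the library. Recovered read totals were 5138302 to 8224422 in mcDC and 9187715 to 12429013 in cDC2, and a single read on 1 kb of gene stands for 0.0805 to 0.195 RPKM. Genes listed at 0 made up 5.21%, 6.00% and 12.3% of the table in mcDC libraries 1, 2 and 3 and 2.71% to 5.01% in cDC2. Pearson correlations between libraries of 1 group were 0.922 to 0.973 in mcDC and 0.985 to 0.993 in cDC2, with mcDC library 3 the least like its group. Differences below are mcDC minus cDC2 on the log2(RPKM + 1) scale with their standard error, which understates the change of genes with low values. A gene was called at an adjusted p (limma, Benjamini-Hochberg) of 0.05 or less. Ranges of adjusted p introduced by "within" span all settings of the fit. They include the fit without title run 1, where the prior degrees of freedom became infinite and a gene's own scatter no longer counted. The low end of a range is therefore no measure of certainty.

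Of 11657 genes above 1 RPKM in at least 2 of the 6 libraries, 444 were called, which is 3.81%. In mcDC 229 were higher (1.96%) and 215 lower (1.84%), and the median difference over all tested genes was 0.06. The 6 libraries did not overlap for 394 of the called genes, against 2534 of all tested genes (21.7%; 13.9% higher and 7.8% lower). Every one of the 444 went the same way in all 3 pairs, which a call in the paired fit nearly requires, so it is no separate support. Without the pairing 251 genes were called (2.15%), 227 of them also called with it. Leaving out 1 library without pairing gave 380, 11 and 376 calls without mcDC library 1, 2 or 3 and 65, 3 and 18 without cDC2 library 1, 2 or 3. With the pairing, leaving out title run 1, 2 or 3 gave 1294, 318 and 758 calls, which held 430, 266 and 441 of the 444. A mean of fewer than 10 reads per library lay behind 9 of the 444 calls (2.03%, against 2.16% of all tested genes).

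The 5 genes named beforehand as markers of this comparison separated the groups without overlap, as did 21.7% of all tested genes. Genes were chosen with earlier results of these data known, so the separation of these 5 is no separate support. Whether any of them was used to sort the cells is not given. Mertk (gene ID 17289), a receptor tyrosine kinase that binds apoptotic cells through bridging proteins, was listed at 11, 15.8 and 14.2 RPKM in mcDC and 0.61, 0.818 and 0.775 in cDC2. Its mean was 18.6-fold higher in mcDC, a difference of 3.07 ± 0.21 (adjusted p = 0.00174). Vcam1 (22329), the adhesion molecule used to identify splenic red pulp macrophages, was at 49.6, 59.6 and 74.6 RPKM in mcDC and 9.92, 5.56 and 7.5 in cDC2, a difference of 2.86 ± 0.22 (adjusted p = 0.00243). Irf8 (15900), the transcription factor that cDC1 depend on, stood at 206, 404 and 493 RPKM in mcDC and 50.9, 83.2 and 94.7 in cDC2, a difference of 2.21 ± 0.11 (adjusted p = 6.36e-04). In all 3 cases every mcDC library lay above every cDC2 library.

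The other 2 markers were lower. Itgam (16409), which encodes CD11b, was at 15, 16.4 and 10 RPKM in mcDC and 80.9, 105 and 117 in cDC2, a difference of -2.79 ± 0.21 (adjusted p = 0.00234). Ace (11421), angiotensin-converting enzyme, a peptidase of the cell surface, was at 7.17, 6.82 and 6.93 RPKM in mcDC and 81.6, 96.1 and 104 in cDC2. Its mean was 13.5-fold lower in mcDC (difference -3.57 ± 0.13, adjusted p = 2.27e-04), and the 3 mcDC libraries differed from each other by less than 1 RPKM. All 5 markers were also called without the pairing, with adjusted p between 2.52e-04 and 0.0322. The plot of 10 genes by library shows the same direction in every pair.

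**Figure D1:**
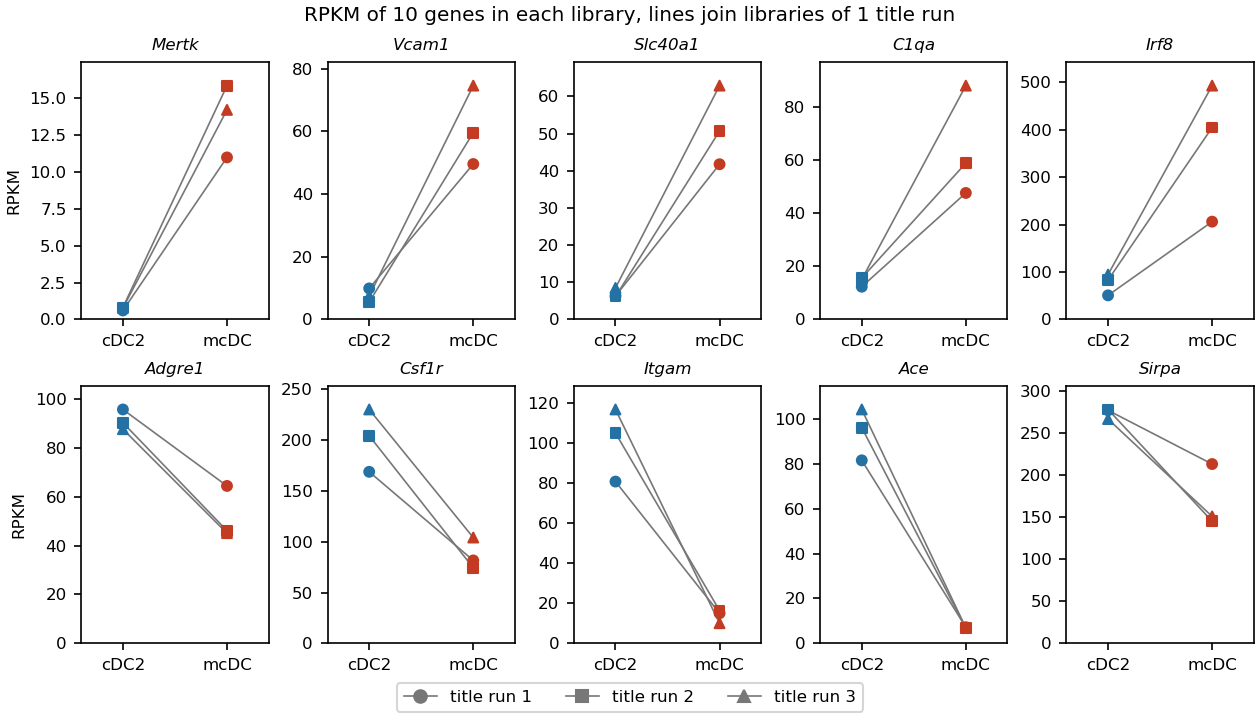
RPKM (vertical axes, each from 0) of 10 genes in the cDC2 and mcDC libraries, 1 point per library, with lines joining the libraries of 1 title run. Mertk, Vcam1, Slc40a1, C1qa and Irf8 were higher in mcDC in each pair, and Adgre1, Csf1r, Itgam, Ace and Sirpa were lower.

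Genes of splenic macrophages moved in both directions. Of 27 tested genes of a macrophage identity list, 12 rose and 4 fell in mcDC. These shares of 44.4% and 14.8% stand against 1.96% and 1.84% of all tested genes. The median difference was 0.80 against 0.06 over all genes. Slc40a1 (53945), ferroportin, which exports iron from macrophages, was at 41.8, 50.7 and 62.9 RPKM in mcDC and 6.3, 6.16 and 8.49 in cDC2 (difference 2.72 ± 0.14, adjusted p = 6.36e-04). Cd5l (11801), a secreted macrophage protein, was at 12.9, 14 and 36.2 RPKM in mcDC and 1.92, 1.53 and 2.49 in cDC2 (difference 2.74 ± 0.26, adjusted p = 0.00438). Itgad, the alpha subunit of an integrin of red pulp macrophages, had 15.7, 16.9 and 12.7 RPKM in mcDC and 2.58, 2.67 and 2.09 in cDC2, and the groups were far apart. The complement component genes C1qa, C1qb and C1qc were higher by 2.06, 2.01 and 2.63. C1qc had 49.2, 75.7 and 156 RPKM in mcDC and 12, 12.2 and 13.9 in cDC2, with mcDC library 3 the highest.

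Also higher were Hmox1 (difference 1.94 ± 0.14), which degrades heme, and Maf (1.41 ± 0.21), a transcription factor of macrophage differentiation. Spic, the factor that red pulp macrophages require, was at 29.5, 31.2 and 45.9 RPKM in mcDC and 13.5, 14.9 and 26.9 in cDC2 (difference 0.95 ± 0.13, adjusted p = 0.0147, and 0.196 without the pairing, within a range of 5.31e-04 to 0.629 over all settings). The genes that fell include general markers of the lineage. Adgre1, which encodes F4/80, was at 64.4, 46.1 and 45.1 RPKM in mcDC and 95.7, 90.2 and 87.6 in cDC2, a difference of -0.82 ± 0.12 (adjusted p = 0.0193, and 0.0612 without the pairing, within 1.69e-06 to 0.296). Csf1r, the receptor for macrophage colony-stimulating factor, was at 81.6, 74.3 and 104 RPKM in mcDC and 169, 204 and 230.3 in cDC2 (difference -1.21 ± 0.12, adjusted p = 0.00471). Lrp1, a scavenger receptor for dying cells, fell by 1.6, and Treml4, a receptor for dead cells, fell by 0.93 (adjusted p = 0.13 without the pairing, within 8.47e-05 to 0.465).

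Other macrophage markers were low in both groups. Siglec1, a marker of marginal metallophilic macrophages, had 1.03, 0.872 and 1.25 RPKM in mcDC and 0.391, 0.801 and 0.705 in cDC2. Marco, of marginal zone macrophages, had 0.306, 1.45 and 0 RPKM in mcDC and 0.219, 0.437 and 0.283 in cDC2 and did not pass the filter. Cd68, the member not called with the highest level, was at 155, 188 and 189.5 RPKM in mcDC and 225, 241 and 303 in cDC2 (adjusted p = 0.0554). The list's summed RPKM was 893, 1033 and 1434 in mcDC and 808, 880 and 1060 in cDC2, and whether the rises came from macrophages in the sort or from the mcDC themselves was not tested. In libraries of many cells, fewer cells of a type and less RNA per cell cannot be told apart, here or for any list below. Without the pairing the counts were 12 higher and 2 lower, but Spic was not among those 12. Without title run 2 they were 10 and 2. With no pairing, 12, 2 and 12 were higher without mcDC library 1, 2 or 3. Without cDC2 library 1, 2 or 3 and the pairing, 5, 1 and 4 were higher.

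Among 21 tested genes for the uptake of apoptotic cells, 5 rose and 2 fell, with a median of -0.14. These shares of 23.8% and 9.52% stand against 1.96% and 1.84% of all tested genes. Besides Mertk and C1qa the rises were Axl, Mfge8 and Stab2. Axl, the receptor related to Mertk, was at 20.2, 22.1 and 27.2 RPKM in mcDC and 6.26, 7.18 and 10.9 in cDC2, a difference of 1.43 ± 0.15 (adjusted p = 0.00583). Mfge8, which bridges phosphatidylserine on dying cells to integrins, was at 9.48, 8.96 and 16.2 RPKM in mcDC and 4.19, 4.77 and 3.97 in cDC2 (difference 1.2 ± 0.24, adjusted p = 0.05, and 0.062 without the pairing, within 0.00177 to 0.262). Stab2, a phosphatidylserine receptor of sinus endothelium, was at 2.67, 2.25 and 2.65 RPKM in mcDC and 0.214, 0.213 and 0.207 in cDC2 (difference 1.54 ± 0.27, adjusted p = 0.036).

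The third receptor of the family, Tyro3, and the bridging ligand Gas6 were below 1 RPKM in every library and were not tested. The falls were Lrp1 and Cd300lb, an activating receptor of myeloid cells. Calr, calreticulin, which dying cells expose, had the highest level among members not called, at 362, 503 and 565 RPKM in mcDC and 356, 416 and 415 in cDC2. The groups overlapped, with an adjusted p of 0.331. The counts were 4 and 2 both without the pairing and without title run 2.

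Complement and iron genes beyond those above were split. Of 8 tested complement genes, 4 rose and 1 fell. C6, of the membrane attack complex, was at 6.54, 6.45 and 5.33 RPKM in mcDC and 0.459, 0.275 and 0.679 in cDC2 (difference 2.28 ± 0.26, adjusted p = 0.00798), and C3, the central component, was at 2.27, 1.99 and 2.04 RPKM in mcDC and 8.25, 13.4 and 15.2 in cDC2 (difference -2.06 ± 0.24, adjusted p = 0.00846). Both separated the groups, in opposite directions. Of 19 tested iron and heme genes, 3 rose (Hmox1, Slc40a1 and Spic, 15.8%) and 2 fell (10.5%). Hfe, a regulator of iron sensing, fell by 1.05, and Nfe2l2, a transcription factor of the oxidative stress response, fell by 0.92 (adjusted p = 0.0665 without the pairing, within 4.18e-04 to 0.316). Fth1, the heavy chain of ferritin, was at 533, 506 and 670.3 RPKM in mcDC and 681, 665 and 815 in cDC2 (adjusted p = 0.149).

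Of 15 tested genes shared by all conventional dendritic cells, only Id2 passed in limma (6.67% higher, against 1.96% of all tested genes). The median was -0.05, 5 had an unadjusted p under 0.05 and voom called 3 (2 of them higher). Id2, an inhibitor of basic helix-loop-helix factors that cDC1 require, was at 222, 372 and 522 RPKM in mcDC and 109.6, 159 and 155 in cDC2 (difference 1.32 ± 0.15, adjusted p = 0.00816, and 0.108 without the pairing, within 1.21e-20 to 0.336). Zbtb46, a transcription factor that marks conventional dendritic cells, had 44.4, 34.9 and 25.5 RPKM in mcDC and 37.1, 37.6 and 29.2 in cDC2, and Flt3, their growth factor receptor, had 189, 189.7 and 144 RPKM in mcDC and 163, 134 and 140.5 in cDC2. Both ranges overlapped, with adjusted p of 0.969 and 0.329. Cd74, the invariant chain of class II, had the highest level of the list, at 9849, 8496 and 11013 RPKM in mcDC and 12585, 11169 and 12173 in cDC2 (adjusted p = 0.411). Itgax, which encodes CD11c, was at 414, 308 and 253 RPKM in mcDC and 514, 464 and 406 in cDC2 (adjusted p = 0.0633).

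Genes that define cDC2 were lower or, more often, not called. Clec4a4 and Esam, also named beforehand as markers of the class, are not described here. Of 21 tested, 8 fell and 1 rose (38.1% and 4.76%, against 1.84% and 1.96% of all tested genes). The median was -0.62. The counts were 6 and 1 without the pairing and 6 and 0 without title run 2. The gene that rose is not among those described here. Clec10a, a lectin for galactose-type sugars, showed the largest fall of the list, at 0.678, 4.35 and 4.94 RPKM in mcDC and 20.6, 45.4 and 67.5 in cDC2 (difference -3.44 ± 0.17, adjusted p = 6.36e-04). Its relative Mgl2 was at 0.313, 0.232 and 0.125 RPKM in mcDC and 3.72, 8.62 and 10.7 in cDC2 (difference -2.73 ± 0.35, adjusted p = 0.0107), with 4, 2 and 1 reads in the mcDC libraries. Cd209a, a DC-SIGN homologue, was at 105, 75.5 and 58.5 RPKM in mcDC and 273, 339 and 396 in cDC2 (difference -2.09 ± 0.24, adjusted p = 0.00798). No mcDC library reached the lowest cDC2 library for any of these.

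Sirpa, the receptor used to separate cDC2 from cDC1, was at 213, 145 and 151 RPKM in mcDC and 277, 278 and 267 in cDC2. Its difference was -0.71 ± 0.13 (adjusted p = 0.042, and 0.114 without the pairing, within 3.86e-07 to 0.472), and mcDC stayed well above the 22.7 RPKM mean of cDC1. Cx3cr1, the fractalkine receptor, was at 24.9, 18.6 and 26.3 RPKM in mcDC and 58.5, 67.1 and 72.3 in cDC2 (difference -1.47 ± 0.14), and Tgm2, a transglutaminase, was at 103, 98.4 and 96.5 RPKM in mcDC and 196, 226 and 201 in cDC2 (difference -1.06 ± 0.10). Cd300a, an inhibitory receptor, fell by 0.71 (adjusted p = 0.0193, and 0.155 without the pairing, within 9.49e-04 to 0.555). Irf4, the transcription factor that cDC2 depend on, was at 39, 21.4 and 12.8 RPKM in mcDC and 36.1, 24.8 and 20.5 in cDC2, with overlapping ranges and an adjusted p of 0.486. Klf4, a further factor of the class, was at 133, 75.7 and 72.7 RPKM in mcDC and 128, 98.7 and 103 in cDC2 (adjusted p = 0.339). Cd4, a surface marker of most splenic cDC2, was at 96.6, 47.6 and 34.4 RPKM in mcDC and 123, 93.9 and 83.8 in cDC2, with an adjusted p of 0.0551.

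Of 20 tested genes that define cDC1, 13 rose (65.0%, against 1.96% of all tested genes) and none fell. Their median was 1.46. Xcr1, the chemokine receptor that marks the class, was at 10.3, 17.3 and 19.4 RPKM in mcDC and 1.95, 2.81 and 2.58 in cDC2 (difference 2.24 ± 0.20, adjusted p = 0.00376). Gcsam was higher by 2.68 and Rab7b by 2.36, with adjusted p of 0.0612 and 0.051 without the pairing (within 1.84e-21 to 0.215 and 1.21e-24 to 0.197). Cd24a, a surface glycoprotein, was at 107, 224 and 262 RPKM in mcDC and 22.3, 42.8 and 56.7 in cDC2 (difference 2.25 ± 0.10, adjusted p = 6.00e-04). Clec9a, which binds actin exposed by dead cells, was at 46.6, 74.4 and 61.7 RPKM in mcDC and 20.2, 17 and 24.3 in cDC2 (difference 1.51 ± 0.19, adjusted p = 0.0102). Tlr3, a receptor for double-stranded RNA, was at 18.4, 36 and 34.9 RPKM in mcDC and 5.27, 7.94 and 7.65 in cDC2 (difference 1.91 ± 0.16, adjusted p = 0.00313).

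For each of the 13 genes the mcDC mean lay between the cDC2 and the cDC1 mean. In cDC1 the mean was 159 RPKM for Xcr1, 325 for Clec9a, 106 for Tlr3 and 727 for Irf8. Cd8a, the defining surface marker of splenic cDC1, had a mean of 332 RPKM in cDC1 but was at 3.72, 4.02 and 9.68 RPKM in mcDC and 1.22, 1.27 and 1.41 in cDC2 (difference 1.46 ± 0.29, adjusted p = 0.0499, and 0.0967 without the pairing, within 0.00175 to 0.368). Cd24a came nearest to cDC1, with a mean of 198 RPKM in mcDC against 205. Of the members not called, Wdfy4, which cross-presentation by cDC1 requires, was at 229, 225 and 173 RPKM in mcDC and 185, 169 and 129 in cDC2 (adjusted p = 0.101), and Batf3 was at 143, 160.0 and 249 RPKM in mcDC and 123, 112 and 120.0 in cDC2 (adjusted p = 0.123). Of the other called members, Hepacam2, Snx22, Cadm1 and Btla rose by 2.12, 1.46, 1.46 and 0.97, and Naaa, whose libraries overlapped, by 1.53. The count of 13 became 8 without the pairing and 11 without title run 2, and some genes that lost the call are not marked here. With no pairing it was 12, 0 and 9 without mcDC library 1, 2 or 3. Without cDC2 library 1, 2 or 3 and the pairing it was 0. The part of cDC1 in these libraries was not tested.

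**Figure D2:**
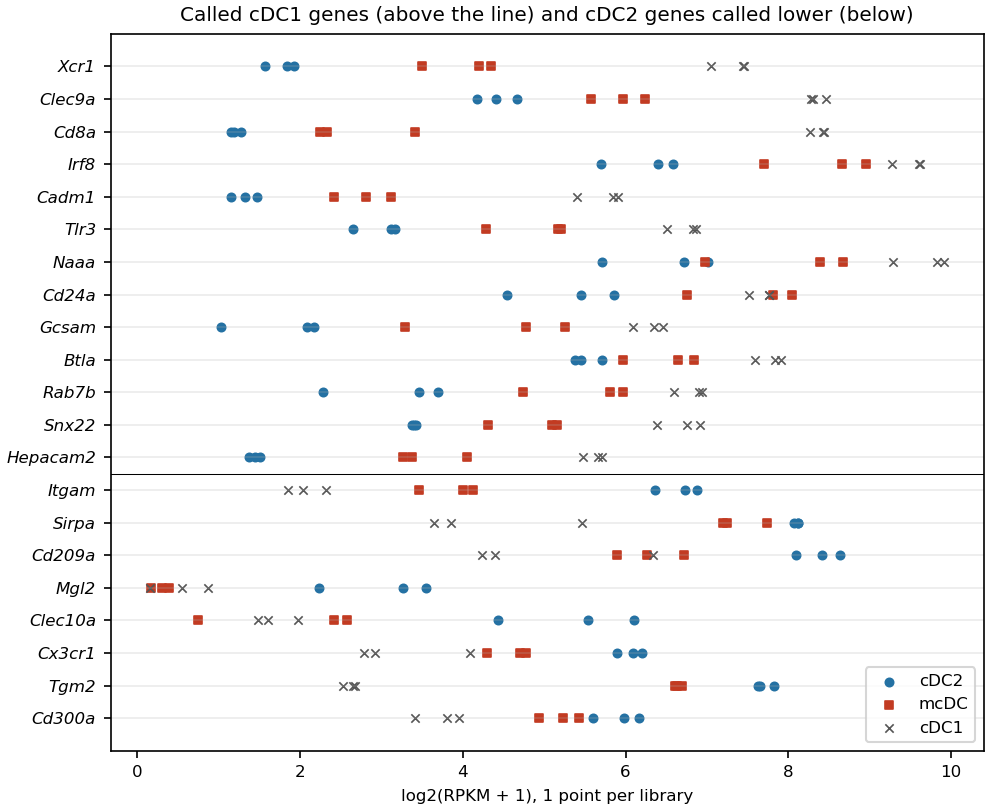
log2(RPKM + 1) of the called cDC1 genes (above the line) and the cDC2 genes called lower in mcDC (below) in each library, with cDC2 as circles, mcDC as squares and cDC1, which was not in the fit, as crosses. For most genes above the line the mcDC libraries sit between those of cDC2 and cDC1.

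Most of the tested monocyte and neutrophil genes fell. Of 20 tested monocyte genes 14 fell and 1 rose (70.0% and 5.0%, against 1.84% and 1.96% of all tested genes). The median was -1.13, and the gene that rose is not among those described here. Lyz2 (17105), lysozyme, was at 201, 214 and 219.5 RPKM in mcDC and 698, 1176 and 1462 in cDC2 (difference -2.33 ± 0.18, adjusted p = 0.00269). This was the largest fall in RPKM among called genes, with predicted genes and antigen receptor segments left out of the ranking. Its near-identical copy Lyz1 was at 33, 31.7 and 37.6 RPKM in mcDC and 119, 181 and 202 in cDC2, and reads could have been divided between the 2 copies. F13a1, the factor XIII subunit of monocytes, was at 0.371, 1.51 and 0.89 RPKM in mcDC and 5.37, 15.1 and 20.6 in cDC2 (difference -2.8 ± 0.29, adjusted p = 0.00583). Fn1, fibronectin, fell by 2.04 (adjusted p = 0.0948 without the pairing, within 4.13e-12 to 0.373). Without the pairing 9 of the list fell and none rose, and without title run 2 the counts were 13 and 1.

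Of 13 tested neutrophil genes 9 fell (69.2%, against 1.84% of all tested genes), with a median of -3.85, also with Camp at its bound. S100a8 (20201) and S100a9 (20202) encode the 2 subunits of calprotectin. S100a8 was at 0.619, 12.4 and 21.3 RPKM in mcDC and 60.2, 345 and 632 in cDC2 (difference -4.92 ± 0.14, adjusted p = 5.60e-05). S100a9 was at 0.177, 4.45 and 10.5 RPKM in mcDC and 45.9, 296 and 482 in cDC2 (difference -5.49 ± 0.14, adjusted p = 5.16e-05). In both groups the library of title run 1 was lowest and that of run 3 highest, and without the pairing the adjusted p of the 2 genes were 0.101 and 0.0522 (within 3.77e-176 to 0.385 and 4.08e-203 to 0.251). Low ends of this size can come from the fit with infinite prior degrees of freedom.

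Ngp, a granule protein, was at 0.523, 0.309 and 4.01 RPKM in mcDC and 7.11, 124 and 235 in cDC2, Ltf, lactoferrin, at 0.0885, 0 and 1.49 RPKM in mcDC and 2.58, 45.4 and 72.6 in cDC2, and Lcn2, lipocalin 2, at 0.142, 0 and 0.911 RPKM in mcDC and 4.2, 45 and 83.7 in cDC2. Camp, the cathelicidin precursor, had no read in any mcDC library and 2.18, 61.4 and 108 RPKM in the cDC2 libraries. Against a floor of 3 reads per mcDC library its mean was at least 69-fold lower. Retnlg, a resistin-like protein of neutrophils, had 0, 0.886 and 0 RPKM in mcDC and 6.97, 24.4 and 27.2 in cDC2. Chil3, a chitinase-like protein of myeloid cells that is not on the list, had 1 read in the 3 mcDC libraries together and 5.16, 33.6 and 52.9 RPKM in the cDC2 libraries.

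The level of the neutrophil genes also differed among the cDC2 libraries. The list's summed RPKM was 197, 1020 and 1713 in cDC2 and 40.9, 43.4 and 56.7 in mcDC, and of its 14 listed genes, 6, 5 and 3 were at 0 in the mcDC libraries against 3, 0 and 0 in cDC2. The part of neutrophils in the cDC2 libraries was not tested. Without the pairing only 2 of the 9 falls were called, and without title run 2 there were 8. Mmp9, a gelatinase, behaved less sharply, at 24.4, 15.3 and 7.4 RPKM in mcDC and 40.5, 27.1 and 18.5 in cDC2 (difference -0.90 ± 0.15, adjusted p = 0.03, and 0.428 without the pairing, within 0.00146 to 0.824).

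**Figure D3:**
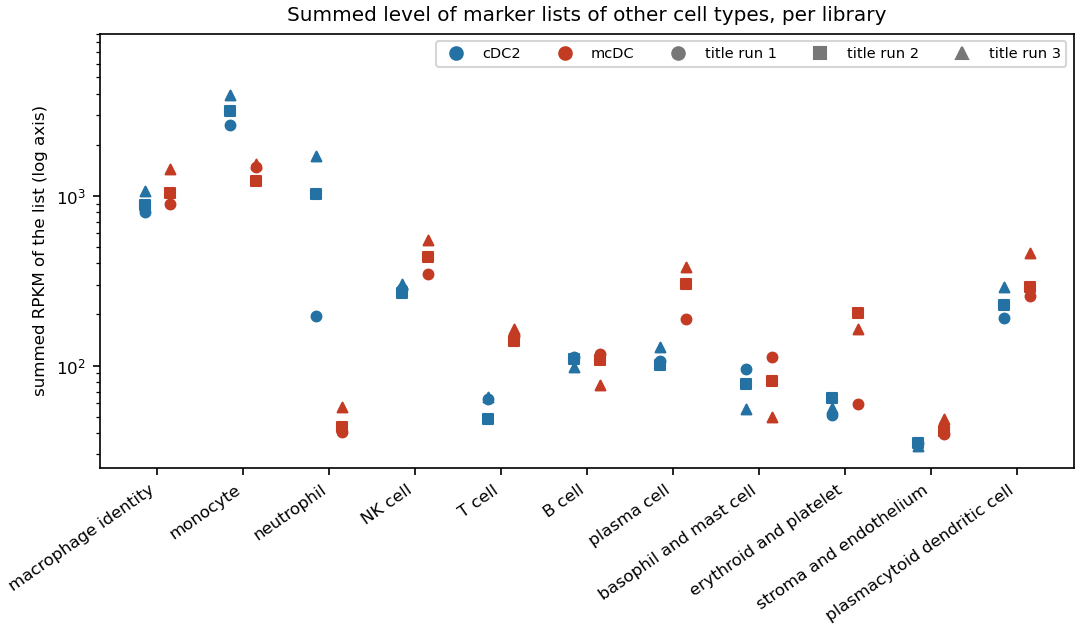
Summed RPKM (log axis) of marker lists of 11 cell types in each cDC2 and mcDC library, with symbols for the title runs. The neutrophil list spans 197 to 1713 in cDC2 and 40.9 to 56.7 in mcDC, and the NK, T and plasma cell lists are higher in every mcDC library.

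Several of the largest rises were lymphocyte genes. Xcl1 (16963), a chemokine made by NK and CD8 T cells and the ligand of XCR1, was at 25.9, 39.4 and 97.5 RPKM in mcDC and 1.52, 2.25 and 3.84 in cDC2. It rose most among the ranked genes, which were called, reached 10 RPKM and did not overlap. Predicted genes and antigen receptor segments were not ranked. Its mean was 21.4-fold higher (difference 3.8 ± 0.21, adjusted p = 9.21e-04). Klrc1, a receptor of NK cells, was at 9.98, 23.4 and 37.5 RPKM in mcDC and 2.3, 1.88 and 2.35 in cDC2 (difference 2.78 ± 0.34, adjusted p = 0.00951). Ctsw, a cathepsin of cytotoxic lymphocytes, was at 15, 31.5 and 35.1 RPKM in mcDC and 2.34, 2.96 and 4.14 in cDC2 (difference 2.7 ± 0.20, adjusted p = 0.00234).

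Of 13 tested NK cell genes 6 rose (46.2%, against 1.96% of all tested genes) and none fell, with a median of 1.31. Ncr1, the activating receptor NKp46, was at 21.4, 32.2 and 22.3 RPKM in mcDC and 2.67, 3.26 and 4.78 in cDC2 (difference 2.53 ± 0.22, adjusted p = 0.00349), and Il2rb, a receptor subunit for IL-2 and IL-15, at 26.3, 37.9 and 29.7 RPKM in mcDC and 3.79, 5.76 and 5.84 in cDC2 (difference 2.4 ± 0.16, adjusted p = 0.00173). Nkg7, of cytotoxic granules, was at 18.1, 31.2 and 81.5 RPKM in mcDC and 4.95, 6.94 and 9.69 in cDC2 (difference 2.22 ± 0.25, adjusted p = 0.00797, and 0.0986 without the pairing, within 5.45e-25 to 0.345). Klrd1, which pairs with the product of Klrc1, was the highest of the list and was at 159, 175 and 173 RPKM in mcDC and 174, 149.6 and 173 in cDC2 (adjusted p = 0.895). Gzma, granzyme A, was at 22.5, 40.5 and 76.1 RPKM in mcDC and 16.2, 20.7 and 28 in cDC2 (adjusted p = 0.0523). The Klr genes are a family of close relatives, so reads could have been divided among them.

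Of 14 tested T cell genes 4 rose (28.6%, against 1.96% of all tested genes) and none fell, with a median of 1.01. Tcf7, a transcription factor of T cells and other lymphocytes, was at 74.8, 52.6 and 55.4 RPKM in mcDC and 24.8, 12.8 and 14.3 in cDC2 (difference 1.8 ± 0.13, adjusted p = 0.00234), and it alone was called without the pairing. Lck, a kinase of the T cell receptor, was at 9.11, 9.94 and 21 RPKM in mcDC and 3.23, 3.03 and 4.25 in cDC2 (difference 1.59 ± 0.22, adjusted p = 0.0148, and 0.0598 without the pairing, within 3.81e-06 to 0.288). Cd3e, a defining T cell gene, had 6.09, 4.88 and 3.79 RPKM in mcDC and 0.984, 0.906 and 2.85 in cDC2 and an adjusted p of 0.119. Plasma cell genes rose in 3 of 8 cases (37.5%). Jchain (16069), the joining chain of secreted antibodies, was at 85.6, 197 and 274 RPKM in mcDC and 13.3, 13.3 and 29.8 in cDC2 (difference 3.18 ± 0.22, adjusted p = 0.00174). Mzb1, an endoplasmic reticulum chaperone, was at 7.5, 14.9 and 19.5 RPKM in mcDC and 1.56, 0.862 and 1.24 in cDC2 (difference 2.67 ± 0.32, adjusted p = 0.00941).

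None of 12 tested B cell genes was called in limma (median 0.41), although 5 had an unadjusted p under 0.05 and voom called 2. Of 11 tested plasmacytoid dendritic cell genes 4 rose (36.4%, against 1.96% of all tested genes), with a median of 0.57. Among them was Siglech, a lectin of those cells, at 4.35, 2.89 and 4.85 RPKM in mcDC and 0.613, 0.664 and 0.777 in cDC2 (difference 1.56 ± 0.26, adjusted p = 0.0287). The summed RPKM of the NK list was 347 to 552 in mcDC and 267 to 302 in cDC2, that of the T cell list 139 to 164 against 48.3 to 65.6, and that of the plasma cell list 188 to 383 against 101 to 128. The groups did not overlap for these 3 lists, the B cell list overlapped, and the part of lymphocytes in the mcDC libraries was not tested. Without the pairing 4 NK, 1 T cell and 3 plasma cell genes were called.

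Interferon-stimulated genes leaned lower. Of 37 tested 8 fell and 1 rose (21.6% and 2.70%, against 1.84% and 1.96% of all tested genes), with a median of -0.36. The counts were 3 and 0 without the pairing and 6 and 1 without title run 2. Oas3, which makes the messenger that activates RNase L, was at 3.63, 4.04 and 2.55 RPKM in mcDC and 9.63, 11 and 14.8 in cDC2 (difference -1.53 ± 0.24, adjusted p = 0.0242). Rtp4 and Oasl2, both induced by interferon, were at 9.18, 8.11 and 8.02 RPKM in mcDC and 20.6, 24.7 and 31.1 in cDC2 and at 9.56, 6.64 and 9.6 RPKM in mcDC and 19.6, 23.8 and 29.3 in cDC2. Ifitm3 (66141), which restricts virus entry, was at 229.7, 208 and 432 RPKM in mcDC and 490.3, 616 and 882 in cDC2 (difference -1.23 ± 0.14, adjusted p = 0.00784, and 0.147 without the pairing, within 9.76e-16 to 0.469). The rise was Bst2, tetherin, at 76.5, 102 and 169 RPKM in mcDC and 46.1, 58.9 and 82.2 in cDC2 (difference 0.84 ± 0.11, adjusted p = 0.0122, and 0.3 without the pairing, within 9.90e-07 to 0.715). Samhd1, an antiviral nuclease, was the highest of those not called, at 217, 220.1 and 192 RPKM in mcDC and 263, 282 and 250.1 in cDC2 (adjusted p = 0.134).

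IRF8 binds DNA with partner proteins, at the interferon-stimulated response element (ISRE) with other IRF proteins and at ETS-IRF motifs with PU.1. RefSeq promoters (GRCm38.p6) were matched by gene ID for 9325 of the 11657 tested genes. The ISRE was taken as GAAA, any 2 bases and GAAA again, sought on either strand in the 200 bases before each start, and 247 of the 9325 genes (2.65%) held it. The ETS-IRF motif, GGAA, any 2 bases and GAAA, can overlap it and was held by 1.89%. A comparison of shares between called and other genes was void, since only 76.0% of the higher and 74.9% of the lower genes had a promoter. Of the called genes with a promoter, 6 of 174 higher and 14 of 161 lower ones held the ISRE. The 5 promoters below are examples from these 20, chosen after the matches were seen from interferon-stimulated and phagocyte genes described in the text, and Bst2 alone of the 5 was higher in mcDC. Ifi205 (higher) and Tgfbi (lower) also held a match and are not shown. Each is shown 5' to 3' on the gene's strand, ending 1 base before the start, with the matches in capitals.
Oas3, chr5:120777660-120777859, minus strand: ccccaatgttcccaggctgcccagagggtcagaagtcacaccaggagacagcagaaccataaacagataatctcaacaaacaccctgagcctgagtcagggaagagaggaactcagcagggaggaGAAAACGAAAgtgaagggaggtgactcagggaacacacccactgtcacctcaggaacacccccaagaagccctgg
Cybb, chrX:9469325-9469524, minus strand: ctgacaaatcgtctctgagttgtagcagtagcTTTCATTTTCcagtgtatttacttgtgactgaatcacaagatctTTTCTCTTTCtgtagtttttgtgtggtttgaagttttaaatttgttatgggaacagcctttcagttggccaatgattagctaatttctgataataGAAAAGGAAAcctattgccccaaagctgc
Fcgr4, chr1:171018726-171018925, plus strand: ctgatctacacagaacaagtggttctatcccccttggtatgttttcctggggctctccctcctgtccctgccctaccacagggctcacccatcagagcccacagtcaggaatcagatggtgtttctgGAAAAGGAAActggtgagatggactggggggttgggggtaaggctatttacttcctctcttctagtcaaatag
Ctss, chr3:95526586-95526785, plus strand: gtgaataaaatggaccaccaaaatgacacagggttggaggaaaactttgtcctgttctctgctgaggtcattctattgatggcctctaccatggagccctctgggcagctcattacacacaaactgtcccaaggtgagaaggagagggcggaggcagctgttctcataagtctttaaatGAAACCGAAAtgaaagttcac
Bst2, chr8:71537473-71537672, minus strand: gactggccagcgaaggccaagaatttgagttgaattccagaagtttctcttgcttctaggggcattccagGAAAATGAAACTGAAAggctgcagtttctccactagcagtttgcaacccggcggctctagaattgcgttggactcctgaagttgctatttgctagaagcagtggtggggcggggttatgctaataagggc

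The match lay 75 to 66 bases before the start in Oas3, 73 to 64 in Fcgr4 and 21 to 12 in Ctss, each on the strand shown. Cybb held 3 matches, 2 of them on the opposite strand, and the one nearest its start lay 29 to 20 bases before it. Bst2 held 2 overlapping matches, the nearer 124 to 115 bases before the start. A match is a description of these letters and not a bound site.

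Sensing of nucleic acids and microbes was divided. Of 29 tested Toll-like receptors and sensors 3 rose and 3 fell (10.3% each, against 1.96% and 1.84% of all tested genes). Their median was -0.34. Tlr12, a receptor for profilin of parasites, was at 12, 11.5 and 18 RPKM in mcDC and 2.47, 2.02 and 3.06 in cDC2 (difference 2.06 ± 0.19, adjusted p = 0.00383). Ifi205, of the DNA-binding p200 family, was at 33.3, 109 and 141 RPKM in mcDC and 6.13, 19.8 and 23.8 in cDC2 (difference 2.4 ± 0.12, adjusted p = 6.36e-04, and 0.141 without the pairing, within 5.10e-40 to 0.364), whereas its relative Ifi204 fell by 1.34 (adjusted p = 0.171 without the pairing, within 6.12e-06 to 0.554). Members of this family are similar in sequence, so reads could have been divided between them. Tlr13, a receptor for bacterial ribosomal RNA, fell by 1.05 (adjusted p = 0.0722 without the pairing, within 7.38e-07 to 0.313). Unc93b1, which carries these receptors to endosomes, had 376, 325 and 334 RPKM in mcDC and 417, 361 and 355 in cDC2 (adjusted p = 0.532).

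Receptors of the myeloid surface held calls in both directions. Among 25 tested C-type lectins and scavenger receptors 7 fell and 4 rose. Clec7a, the beta-glucan receptor Dectin-1, was at 36.8, 19.2 and 14 RPKM in mcDC and 99.2, 80.3 and 96.2 in cDC2 (difference -2.04 ± 0.23, adjusted p = 0.00798). Mrc1, the mannose receptor, was at 13.1, 15.8 and 9.2 RPKM in mcDC and 3.35, 4.86 and 5.15 in cDC2 (difference 1.32 ± 0.23, adjusted p = 0.0361, and 0.0776 without title run 2, within 9.97e-04 to 0.196). Of 21 SIRP and paired receptor genes 8 fell (38.1%) and none rose, with a median of -0.69, and 2 fell without the pairing. Cd300lb was at 3.09, 2.59 and 1.44 RPKM in mcDC and 11.7, 13.8 and 19 in cDC2 (difference -2.24 ± 0.29, adjusted p = 0.0115), and Cd300ld at 16.2, 13.3 and 20.2 RPKM in mcDC and 38, 43.3 and 50.6 in cDC2. Both families hold close relatives, and reads could have been divided among them.

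Of 14 Fc and complement receptor genes 5 fell (35.7%, against 1.84% of all tested genes) and none rose, and 1 fell without the pairing. Fcgr3 was at 7.72, 14.1 and 13.1 RPKM in mcDC and 18.2, 31.4 and 36.8 in cDC2 and Fcgr2b, the inhibitory receptor for IgG, at 20.3, 29.7 and 40.6 RPKM in mcDC and 44, 69.5 and 99.7 in cDC2, with adjusted p of 0.129 and 0.176 without the pairing (within 9.20e-07 to 0.483 and 3.24e-10 to 0.547). Fcgr4, a further activating receptor for IgG, was at 7.96, 15.5 and 28.3 RPKM in mcDC and 23, 32.7 and 51.7 in cDC2 (difference -1.1 ± 0.15, adjusted p = 0.0149, and 0.35 without the pairing, within 1.44e-04 to 0.759). The ranges of Fcgr3 and Fcgr2b did not overlap between groups, and those of Fcgr4 did. Of 19 tested genes of the phagosomal oxidase and proton pump 2 fell (10.5%). Cybb, the catalytic subunit of the oxidase, was at 94.1, 67.6 and 36.3 RPKM in mcDC and 172, 186 and 178 in cDC2 (difference -1.52 ± 0.24, adjusted p = 0.0242, and 0.0681 without the pairing, within 1.33e-27 to 0.296).

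Genes of dendritic cell maturation and migration leaned higher. Of 21 tested 7 rose (33.3%, against 1.96% of all tested genes) and none fell, with a median of 0.38. Only 1 was called without the pairing and 5 without title run 2. Anxa3 was that 1 gene, an annexin, at 72.2, 62.1 and 67.1 RPKM in mcDC and 38.4, 27.6 and 24.1 in cDC2 (difference 1.16 ± 0.14, adjusted p = 0.00846). Cacnb3 was at 86.6, 64.2 and 57.6 RPKM in mcDC and 50.2, 23.3 and 19.8 in cDC2 (difference 1.23 ± 0.16, adjusted p = 0.0128, and 0.158 without the pairing, within 6.94e-12 to 0.555). Ccr7, the receptor that guides dendritic cells to T cell zones, was at 149, 68.8 and 75.3 RPKM in mcDC and 90.1, 33 and 30.8 in cDC2 (difference 1.01 ± 0.13, adjusted p = 0.0122, and 0.401 without the pairing, within 1.83e-08 to 0.843). Library 1 of both groups was the highest in Ccr7 and the ranges overlapped, while each pair differed in the same direction.

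Other receptors that position cells were divided. Of 22 tested chemokine and positioning receptors 4 rose and 2 fell (18.2% and 9.09%, against 1.96% and 1.84% of all tested genes). Ccr3, an eotaxin receptor, was at 6.86, 13.5 and 17.3 RPKM in mcDC and 0.565, 0.795 and 1.96 in cDC2 (difference 2.66 ± 0.23, adjusted p = 0.00349), and Cxcr3, a receptor for interferon-induced chemokines, at 9.73, 18.5 and 26.2 RPKM in mcDC and 2.7, 3.56 and 3.7 in cDC2 (difference 2.06 ± 0.23, adjusted p = 0.00798). Ltb4r1, a receptor for leukotriene B4, was at 5.41, 3.61 and 3.07 RPKM in mcDC and 18.8, 14.6 and 25.4 in cDC2 (difference -2.03 ± 0.24, adjusted p = 0.00919).

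Of 15 tested cytokine genes 3 fell (20.0%, against 1.84% of all tested genes) and none rose. Il1rn, the IL-1 receptor antagonist, was at 0.841, 1.11 and 1.13 RPKM in mcDC and 7.05, 9.42 and 10 in cDC2 (difference -2.27 ± 0.21, adjusted p = 0.00438). Tgfbi, a matrix protein induced by TGF-beta, was at 78.3, 87.9 and 97.6 RPKM in mcDC and 178, 251 and 282 in cDC2 (difference -1.4 ± 0.11, adjusted p = 0.0029). Il1b, interleukin 1 beta, was at 121, 72.5 and 127 RPKM in mcDC and 245, 185 and 233 in cDC2 (difference -1.07 ± 0.12, adjusted p = 0.00798, and 0.0882 without the pairing, within 1.06e-10 to 0.337). Of 14 tested chemokine genes 1 rose, Xcl1 (7.14%, against 1.96% of all tested genes), and 2 fell (14.3%). The falls were Ccl6 and Ccl9, by 1.75 and 1.62 (adjusted p = 0.0612 for Ccl9 without the pairing, within 5.07e-13 to 0.242).

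Antigen presentation genes were called singly. Of 18 tested class II genes 1 rose and 1 fell (5.56% each), and of 22 class I genes 1 fell (4.55%). Of all tested genes 1.96% rose and 1.84% fell. In the class II and class I lists 9 and 5 genes had an unadjusted p under 0.05, and voom called 4 and 2. Without title run 1 the counts were 2 higher and 5 lower for class II and 3 and 1 for class I. H2-Aa, a class II chain, was at 5351, 5059 and 6226 RPKM in mcDC and 7446, 6695 and 7853 in cDC2 (adjusted p = 0.231), and B2m, the light chain of class I, at 1749, 1895 and 2058 RPKM in mcDC and 2144, 2251 and 2529 in cDC2 (adjusted p = 0.286). Neither was called. For both genes every mcDC library lay below every cDC2 library, as for 7.8% of all tested genes. Ctss (13040), the cathepsin that trims the invariant chain, was at 527, 551 and 587 RPKM in mcDC and 794, 888 and 971 in cDC2 (difference -0.67 ± 0.11, adjusted p = 0.024, and 0.106 without the pairing, within 1.09e-04 to 0.501). Of 28 tested lysosomal genes 4 rose (14.3%) and 2 fell (7.14%), but 1 rose and none fell without the pairing. Ppt1, a lysosomal thioesterase, was that gene, at 176, 275 and 292 RPKM in mcDC and 67.6, 91.6 and 102 in cDC2 (difference 1.48 ± 0.10, adjusted p = 0.00174).

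The largest rises in RPKM, with the same classes left out of the ranking, were mostly in abundant genes whose calls did not hold without the pairing. Cst3 (13010), cystatin C, a cysteine protease inhibitor, was at 1478, 3051 and 4608 RPKM in mcDC and 999, 1294 and 1645 in cDC2 (difference 1.1 ± 0.19, adjusted p = 0.0344). Tmsb10 (19240), an actin-binding thymosin, was at 628, 1203 and 1894 RPKM in mcDC and 475, 701 and 915 in cDC2 (difference 0.74 ± 0.15, adjusted p = 0.0496). Crip1, a LIM-domain protein, was at 363, 735 and 1510.1 RPKM in mcDC and 228, 359 and 627 in cDC2, and Vim, the filament protein vimentin, at 681, 848 and 919 RPKM in mcDC and 392, 473 and 573 in cDC2. Without the pairing the adjusted p were 0.317, 0.517, 0.508 and 0.14 (within 1.37e-13 to 0.719, 3.07e-07 to 0.877, 5.28e-12 to 0.872 and 2.06e-05 to 0.541). The ranges of the first 3 genes overlapped between groups, and those of Vim did not. Irf8 was the fifth of these rises and was called without the pairing. The RPKM of all listed genes summed to 399879, 435322 and 510652 in mcDC libraries 1, 2 and 3. In cDC2 the sums were 425653, 436729 and 471561. They climbed with the title run in both groups, as did these genes, and any link was not tested.

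Of 14 tested genes of red blood cell precursors and platelets 1 rose in limma and none fell. The share of 7.14% stands against 1.96% of all tested genes, and the median was 1.01. An unadjusted p under 0.05 was reached by 10 of them, voom called 9 higher, and 11 rose without title run 1. The called gene was Car2, a carbonic anhydrase, at 9.02, 48 and 46.5 RPKM in mcDC and 2.98, 8.58 and 9.2 in cDC2 (difference 1.97 ± 0.23, adjusted p = 0.00798, and 0.243 without the pairing, within 2.99e-21 to 0.58). The summed RPKM of the list was 59.2, 203 and 164 in mcDC and 51.1, 64.3 and 56.2 in cDC2, so that mcDC libraries 2 and 3 lay above all cDC2 libraries and library 1 within their range. The part of such cells in the mcDC libraries was not tested.

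Other lists ranged from no call to shares above those of all tested genes. In limma no gene was called among 32 cell cycle genes, 26 genes of dissociation stress and 81 cytosolic ribosomal proteins. An unadjusted p under 0.05 was reached by 6, 6 and 2 of them, and voom called 2, 5 and 0. Their medians were -0.06, 0.01 and 0.01, close to the 0.06 of all genes. Of 77 respiratory chain genes 2 rose (2.60%, against 1.96% of all tested genes). Of 20 growth factor receptors and signalling genes 4 fell (20.0%, against 1.84% of all tested genes). Among them was Csf3r, the receptor for G-CSF, at 9.94, 6.66 and 3.39 RPKM in mcDC and 21.6, 33.1 and 29.4 in cDC2 (difference -2.0 ± 0.31, adjusted p = 0.0235). Of 8 peptidase genes 2 rose and 1, Ace, fell.

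**Figure D4:**
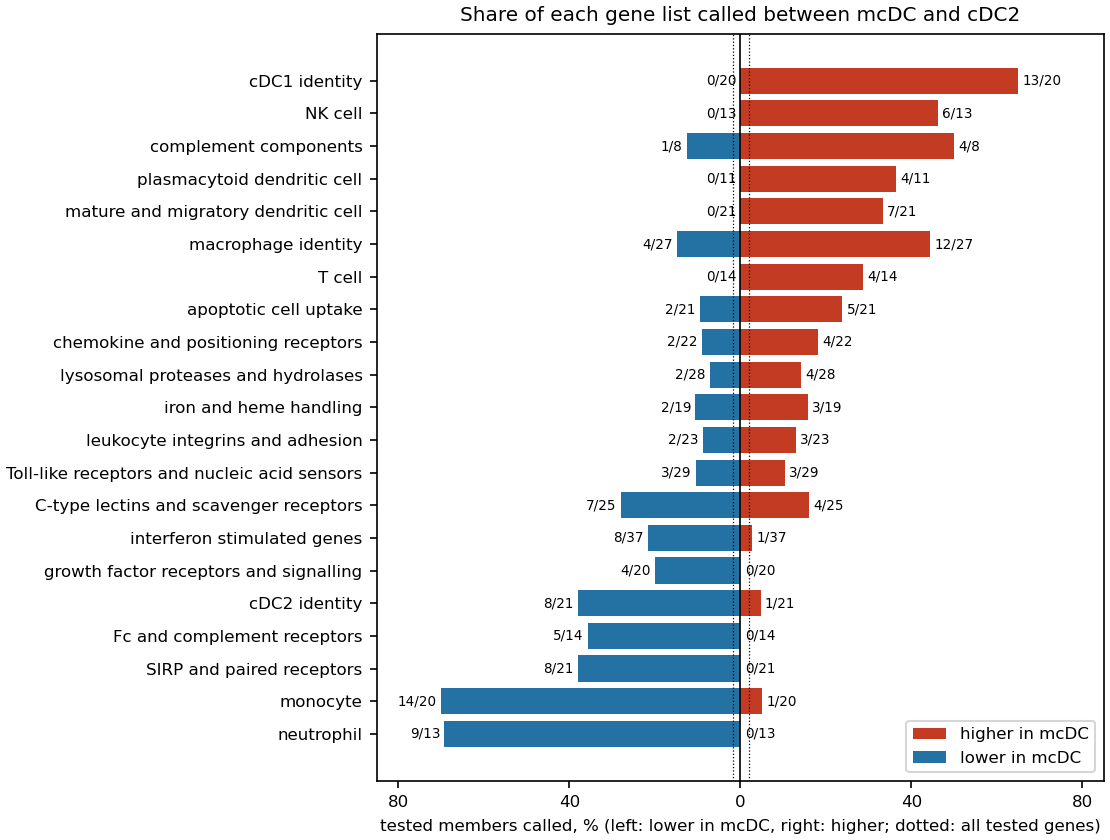
Percentage of the tested members of each gene list with 4 or more calls that were called higher (right, red) or lower (left, blue) in mcDC, with the called and tested numbers at the bars and dotted lines at the shares over all tested genes. The cDC1 list lies highest (13 of 20 higher), and the monocyte (14 of 20 lower) and neutrophil (9 of 13 lower) lists lie lowest.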

How the data were processed

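RNA was sequenced from splenic cDC1, cDC2 and mcDC, 3 libraries each. Per the labels' protocols RNA was isolated with the mirVana kit and stranded libraries were made with the NEBNext Ultra Directional kit. The authors deposited 1 table of 14862 genes by 9 libraries, whose values are RPKM. The headers name no unit, and it was read from the values: multiples of what 1 read is worth in each library gave whole reads for 100% of genes (tolerance 0.001). The aligner, counter and annotation are not given in the sources used here, and mm8 is the build in the submitters' processing notes. Some symbols had been turned into dates in the deposited table (01-sept). All columns belonged to samples of this study.

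Values were taken as log2(RPKM + 1). Genes above 1 RPKM in at least 2 of the 6 mcDC and cDC2 libraries were fitted with limma 3.58.1 in R 4.3.3, blocking on the title run and letting the prior variance follow a trend. Residual degrees of freedom were 2, the median prior degrees 4.59 and the median standard error 0.19. P-values were adjusted over all tested genes by Benjamini-Hochberg. The pairing comes from the title numbers. Deviations from group means correlated at 0.565, 0.241 and 0.463 between libraries of the same run and at -0.566 to -0.037 between other pairs (8340 genes with a mean above 5 RPKM). Replicates differed by more than counting noise (chi-square per degree of freedom 10.7 to 62.1), so none was counted as a duplicate. The fit was tested on simulated reads. There, changed genes were recovered in the right direction, but false calls made up a larger share of the calls than the threshold of 0.05 allows, and most fell on genes with a mean of fewer than 10 reads. The simulation gave every library the same scatter, unlike the real libraries, so it does not give the share of false calls among the 444.

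Genes named are the 5 markers, the 8 largest rises and falls among called genes of at least 10 RPKM without overlap, the 5 largest rises and falls in mean RPKM, and, from 43 gene lists, called members with the largest change and others with the highest RPKM. Left out of both rankings were predicted genes, Xist, Tsix and Y-linked genes, and immunoglobulin and T cell receptor segments. Named outside this rule, after their values were seen, were Zbtb46, Flt3, Irf4, Cd4, Cd3e, Siglec1, Marco, Tyro3, Gas6 and some called members of other lists. The members and lists were chosen with earlier results of these data known. Some called genes are not reported here by name. Lists were described by counts and medians, with no set test. Alternatives covered the block, pseudocount, filter, scaling, the libraries in the fit, the prior variance, voom on recovered reads and leaving out libraries. 1 of them, leaving out title run 3 with no block, was added after the data were seen.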

Additional observations from a re-analysis of the deposited data

How the results depend on the processing

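The call count of 444 (229 higher, 215 lower) depended on the pairing. With no replicate block 251 genes were called (133 higher, 118 lower), and with no filter 268 (133 and 135). With no trend in the prior variance the counts were 275 (175 and 100), with all 9 libraries 779 (469 and 310), and with voom on recovered reads 960 (617 and 343). Pseudocount 0.1, a filter at 5 RPKM, quantile normalization and median-of-ratios scaling gave 350, 393, 465 and 452. Leaving out a title run gave 318 to 1294 calls (160 to 703 higher, 158 to 591 lower), the most without run 1, where the prior degrees of freedom became infinite. With 1 library left out and no block, the counts were 380, 11 and 376 without mcDC library 1, 2 or 3 (218, 4 and 206 higher, 162, 7 and 170 lower) and 65, 3 and 18 without cDC2 library 1, 2 or 3 (22, 2 and 9 higher, 43, 1 and 9 lower). Leaving out title run 3 with no block, an alternative added after the data were seen, gave 67 (34 and 33). The cause was not tested. No called gene named in the text changed direction under any of these settings, but many lost the call. With no block 42 lost it and 63 kept it. Without mcDC library 2 and the block 101 lost it and 4 kept it. Without cDC2 library 2 or 3 and the block 103 and 95 lost it, and 2 and 10 kept it. Ranges of adjusted p are printed for some genes only, and a gene without one did not necessarily hold in every setting. Among genes not called, Klrd1 turned to -0.048 under median-of-ratios scaling and -0.037 without cDC2 library 2 and without the block, and ranged from -0.062 to 0.11 with a title run left out. Irf4 turned to 0.13 without mcDC library 3 and the block. Zbtb46 turned to 0.0028 in voom, to 0.19 without mcDC library 3, 0.041 without cDC2 library 1, 0.050 without cDC2 library 2 and 0.075 without title run 3, each with no block, and ranged from -0.14 to 0.075 with a title run left out.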
